A study of Mus musculus with 11 samples.

Results

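Undifferentiated spermatogonia of the mouse were compared between 15 months and 6 days of age by RNA-Seq, using the 2 libraries of KIT- cells at each age. These 4 libraries were chosen by the age and the sort in their labels, out of 11 libraries in the series, and all genes of the tables entered the comparison. All mice were B6;CBA-Tg(Pou5f1-EGFP)2Mnn/J animals, in which regulatory sequence of Pou5f1 (Oct4) drives a green fluorescent protein (GFP), and the labels name no other allele and no treatment in any group. Every library was made from GFP+ germ cells collected by FACS, and within that shared gate the cells were divided by surface KIT. The same series holds 2 libraries of KIT+ cells at each of these ages, which serve here as a reference, and 3 libraries from 8-month mice. The 2 KIT- libraries among these 3 take part in the estimate of the spread, to which the lone KIT+ library adds nothing. Otherwise the 8-month libraries are given only as values. The reporter gate defines the cells, so each library is a mixture of spermatogonia at several steps rather than a pure population of stem cells. The study's methods describe the replicates as separate sorting experiments. How many mice each library pooled is not given in the sources used here, and p-values measure the spread between these samples.

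Spermatogonial stem cells either renew themselves or give rise to progenitors that later acquire KIT, a receptor tyrosine kinase, and enter differentiation under retinoic acid. Self-renewal depends on GDNF, a growth factor made by Sertoli cells, which signals through the receptor RET and its co-receptor GFRA1 and maintains transcription factors such as ETV5 and ID4. In the first week after birth the testis holds spermatogonia but no meiotic or later germ cells, whereas in an adult testis all later stages, spermatids included, surround the spermatogonia. In bulk libraries a different share of a cell type and a different amount of RNA per cell cannot be told apart.

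The deposited unit was RPKM (read counts divided by exon length and by the size of the library), and whole reads could be recovered for at least 98.0% of the values of each library within 0.05 of a read. The libraries held 28565062 and 25628747 reads on annotated genes at 6 days and 39321372 and 33465730 at 15 months, and a gene of 1 kb with 3 reads would read 0.0760 to 0.117 RPKM in them. Over the 18412 tested genes, log2(RPKM + 1) differed, as a root mean square, by 0.404 between the 6-day libraries, 0.615 between the 15-month libraries and 0.797 to 0.852 between ages, so the 15-month libraries were further apart from each other than the 6-day ones. Genes were called with limma on log2(RPKM + 1) at a Benjamini-Hochberg adjusted p of at most 0.05 and a change of at least 1.5-fold. Every log2 fold change below is 15 months over 6 days on that scale, which understates changes of weakly expressed genes.

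Of the 18412 genes, 2789 (15.1%) were higher and 1250 (6.79%) were lower at 15 months, together 21.9% of all tested genes. The libraries of the 2 ages did not overlap for 58.0% of the genes, with 35.9% higher and 22.2% lower at 15 months. All genes called in either direction were among them, so non-overlap of a called gene adds nothing to its call. Called genes had a median log2 fold change of 1.02 when higher and -0.93 when lower, and 1450 of the higher but 523 of the lower genes differed at least 2-fold. Of the higher genes, 1157 had a mean under 1 RPKM at 6 days, and 352 of all higher genes rose from at most 3 reads in each 6-day library to at least 10 in each 15-month library. The opposite pattern, from at least 10 reads to at most 3, was found for 73 of the lower genes. The median over all genes was 0.10, and dividing RPKM by median-of-ratios factors brought it to 0.02 and turned the split of calls from 2789 higher and 1250 lower into 2238 and 1741. Upper-quartile scaling gave 2280 and 1668. The calls borrow the spread of all groups with 2 libraries, and a fit on the 4 compared libraries alone called 0 genes, although 5235 had a p of 0.05 or less before adjustment. Without replicate 1 of the 6-day libraries the count was 2622 in place of 4039.

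**Figure D1:**
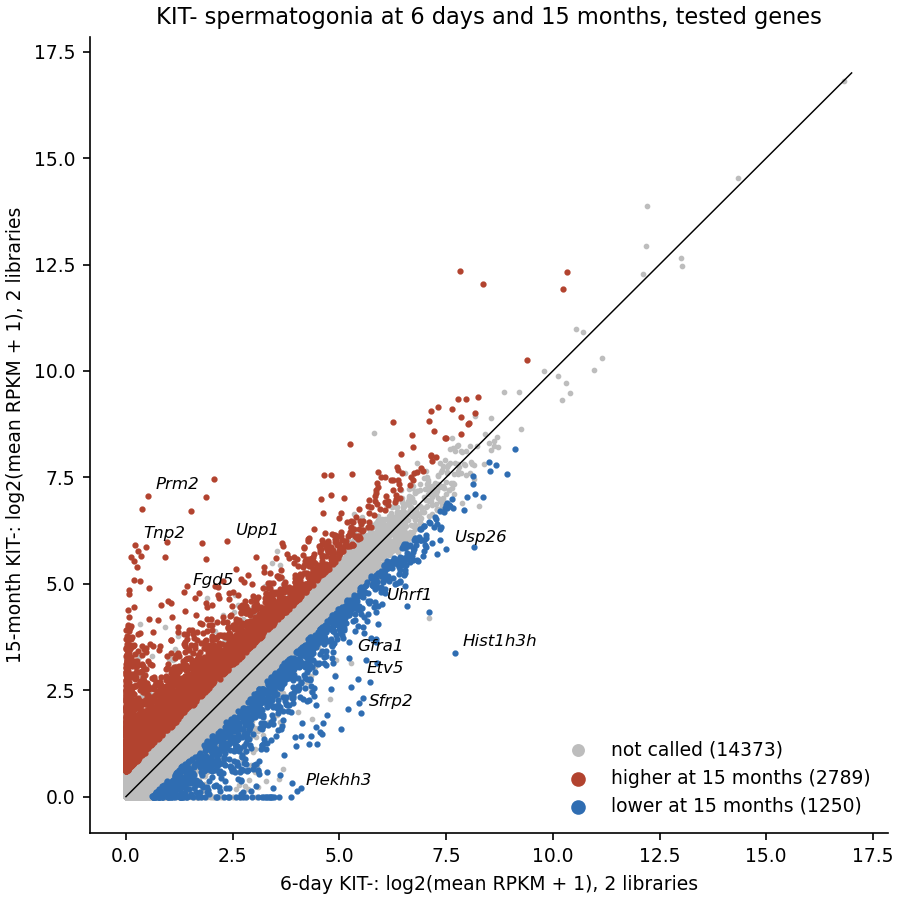
Mean expression in the 6-day (x axis) and 15-month (y axis) KIT- libraries, each as log2(mean RPKM + 1) over 2 libraries, for the 18412 tested genes. Red points are the 2789 genes called higher and blue points the 1250 called lower at 15 months; the line marks equal expression, and spermatid genes such as Prm2 and Tnp2 lie at the upper left, near 0 at 6 days.

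Some genes with small p-values in each direction are given here. Fgd5, which encodes an exchange factor for the GTPase Cdc42, measured 1.63 and 1.51 RPKM at 6 days and 28.7 and 25.5 RPKM at 15 months (log2 fold change 3.45, SE 0.13, adjusted p = 6.5e-05). Spata20 measured 0.0243 and 0.0406 RPKM at 6 days and 10.7 and 10.5 RPKM at 15 months (log2 fold change 3.49, SE 0.16, adjusted p = 8.9e-05). Sord, which encodes the sorbitol dehydrogenase, measured 1.66 and 1.77 RPKM at 6 days and 32.8 and 27.3 RPKM at 15 months (log2 fold change 3.51, SE 0.16, adjusted p = 8.9e-05). These 3 genes were chosen by their small p-values, a choice that itself favors a wide gap between ages and close replicates. In the opposite direction, Plekhh3 fell from 17.3 and 13.0 to 0.127 and 0.0665 RPKM (log2 fold change -3.87, SE 0.21, adjusted p = 1.1e-04). Chrna4, a subunit of the nicotinic acetylcholine receptor, fell from 21.5 and 21.2 to 0.913 and 1.80 RPKM (log2 fold change -3.27, SE 0.20, adjusted p = 1.2e-04), and Lrp1, a large endocytic receptor, fell by a log2 fold change of -2.90 (SE 0.16, adjusted p = 1.1e-04 in limma). Eid1, an inhibitor of differentiation that binds RB and EP300, had the value -3.07 (SE 0.32). The KIT+ fraction shared the falls of Plekhh3, Chrna4, Lrp1 and Eid1, with log2 changes of -2.58, -3.34, -2.57 and -1.83, whereas Spata20 stood at 0.159 and 0.199 RPKM in the 15-month KIT+ libraries.

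Receptors of GDNF and several targets of its signaling fell. Of 33 genes of GDNF, FGF and receptor kinase signaling, 13 were lower and 3 were higher, beside 6.79% and 15.1% of all genes, with a median log2 difference of -0.33. Gfra1 (ENSMUSG00000025089; chromosome 19, 58310094 to 58530399, minus strand in mm9), the GDNF co-receptor, measured 36.2 and 36.1 RPKM at 6 days and 6.60 and 10.6 RPKM at 15 months (log2 fold change -1.98, SE 0.21, adjusted p = 7.3e-04). Ret (chromosome 6, 118101766 to 118147762, minus strand), the signaling receptor, measured 56.9 and 55.8 RPKM at 6 days and 20.3 and 25.0 RPKM at 15 months (log2 fold change -1.29, SE 0.14, adjusted p = 7.9e-04). In both genes, as in every gene called lower, all 6-day values exceeded all 15-month values.

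Several transcription factors and feedback regulators downstream of these receptors fell as well. Etv5 (chromosome 16, 22381382 to 22439792, minus strand) measured 45.6 and 39.5 RPKM at 6 days and 5.24 and 6.28 RPKM at 15 months (log2 fold change -2.69, SE 0.16, adjusted p = 1.2e-04). Etv4, its close relative, measured 30.1 and 20.6 RPKM at 6 days and 3.14 and 2.40 RPKM at 15 months (log2 fold change -2.79, SE 0.23, adjusted p = 2.8e-04). Dusp6, a phosphatase that dampens ERK, measured 59.9 and 54.8 RPKM at 6 days and 8.79 and 15.4 RPKM at 15 months (log2 fold change -2.20, SE 0.29, adjusted p = 0.0017). All 3 genes are known targets of FGF and GDNF signaling through ERK. Other feedback inhibitors moved alike, with log2 fold changes of -2.04 for Spry4, -1.37 for Spred2, -1.21 for Dusp4 and -1.002 for Spred1, and the neuregulin receptor gene Erbb3 had -2.01. The calls of Spred2 and Dusp4 were lost without replicate 1 of the 6-day libraries. In the opposite direction, the kinase gene Mapk3 (ERK1) measured 11.9 and 11.8 RPKM at 6 days and 22.8 and 31.6 RPKM at 15 months (log2 fold change 1.12, SE 0.19, adjusted p = 0.0049), Met, the receptor for hepatocyte growth factor, had a log2 fold change of 1.12, and Spry2 had 1.22, from 0.284 and 0.504 to 1.90 and 2.63 RPKM, with its call lost without replicate 1 of the 6-day libraries.

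Among 36 tested genes of undifferentiated spermatogonia, 15 (41.7%) were lower and 5 (13.9%) were higher, beside 6.79% and 15.1% of all genes. The median log2 difference was -0.26. It was -0.28 without replicate 1 of the 6-day libraries and -0.18 without replicate 1 of the 15-month libraries. Members moved in both directions, although the share of higher genes was near that of all genes. Id4, an inhibitor of DNA binding that marks stem cells, measured 9.42 and 10.4 RPKM at 6 days and 3.46 and 1.60 RPKM at 15 months (log2 fold change -1.68, SE 0.27, adjusted p = 0.0038). Lhx1, a homeobox gene downstream of GDNF, went from 5.93 and 5.55 to 0.0105 and 0.130 RPKM (log2 fold change -2.66, SE 0.16, adjusted p = 1.2e-04). These 2 genes were lower in both older libraries, and for Lhx1 the older libraries lay near the level of a few reads. Bcl6b (-1.62), Tcl1 (-1.75) and Glis3 (-0.83) fell as well, as did Epcam (-0.75), a surface adhesion protein of spermatogonia. Glis3 lost its call without replicate 2 and Epcam without replicate 1 of the 6-day libraries.

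The 5 genes that rose in the same list were Upp1, Ddit4, Lin28a, Nanos3 and Sox3. Upp1 (chromosome 11, 9018106 to 9036173, plus strand), uridine phosphorylase, measured 4.77 and 3.47 RPKM at 6 days and 46.5 and 79.5 RPKM at 15 months (log2 fold change 3.61, SE 0.24, adjusted p = 1.3e-04). Lin28a (chromosome 4, 133559245 to 133574756, minus strand), an RNA-binding protein of progenitor spermatogonia, measured 59.9 and 55.3 RPKM at 6 days and 141 and 190 RPKM at 15 months (log2 fold change 1.49, SE 0.16, adjusted p = 7.4e-04). Ddit4, an inhibitor of mTORC1, measured 19.5 and 14.7 RPKM at 6 days and 56.9 and 56.3 RPKM at 15 months (log2 fold change 1.68, SE 0.22, adjusted p = 0.0015). In these genes every 15-month library exceeded every 6-day library, by more than 2-fold in RPKM. Nanos3 had a log2 fold change of 1.40 (SE 0.28, adjusted p = 0.0096 in limma) and Sox3 of 0.81 (SE 0.22, adjusted p = 0.031), and the calls of both were lost without replicate 1 of the 6-day libraries. The call of Sox3 was also lost with median-of-ratios scaling, with no filter, with no 8-month libraries and without replicate 2 of either age. Zbtb16, Nanos2 and Sall4, which are also genes of the undifferentiated state, were not called. Zbtb16 (PLZF) measured 84.1 and 76.8 RPKM at 6 days and 102 and 119 RPKM at 15 months, below the fold limit (log2 difference 0.45, SE 0.12, adjusted p = 0.028). Nanos2 measured 3.15 and 3.24 RPKM at 6 days and 4.45 and 5.50 RPKM at 15 months and did not pass (log2 difference 0.50, SE 0.32, adjusted p = 0.28), and Sall4 did not pass either, with 13.8 and 26.7 RPKM in the older libraries against 12.8 and 12.2 RPKM.

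**Figure D2:**
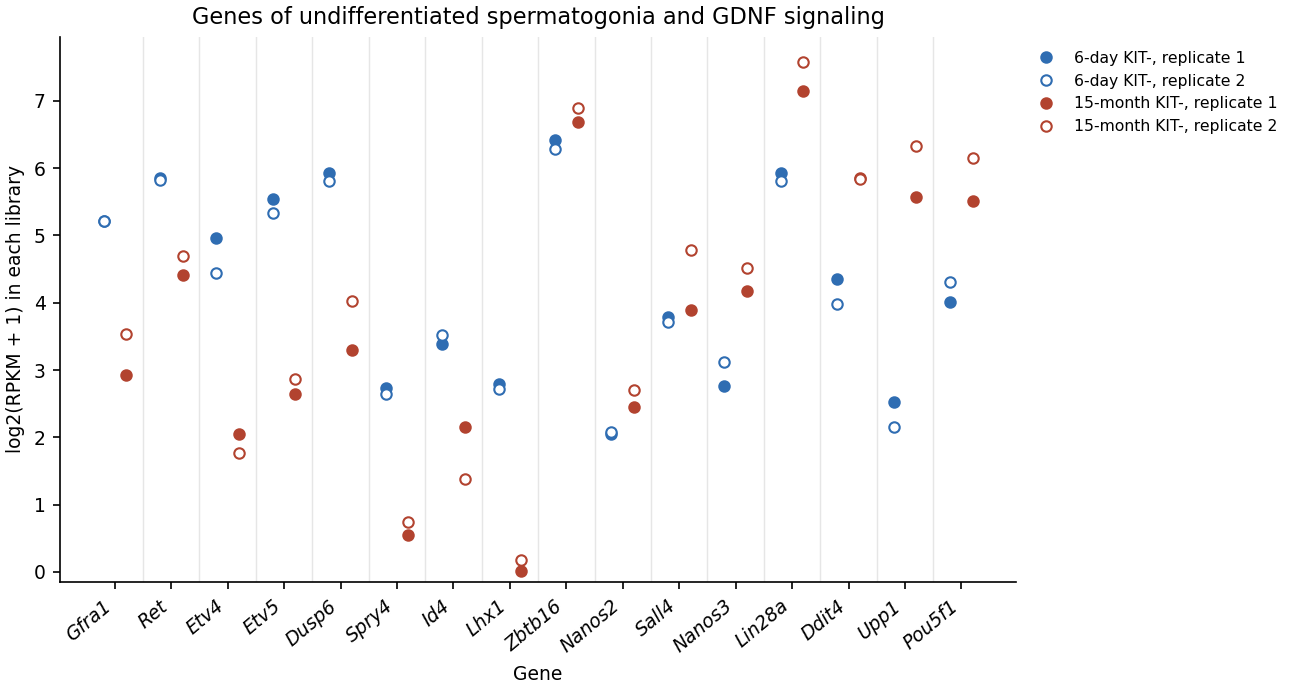
Expression of 16 genes in each KIT- library, as log2(RPKM + 1) on the y axis, with 6-day libraries in blue and 15-month libraries in red (filled, replicate 1; open, replicate 2). From Gfra1 to Lhx1 both older libraries lie below both younger ones, Zbtb16, Nanos2 and Sall4 were not called, and from Nanos3 to Pou5f1 both older libraries lie above.

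The genes behind the sort also differed in level. Pou5f1 (chromosome 17, 35642982 to 35647721, plus strand), whose regulatory sequence drives the reporter, measured 15.2 and 18.8 RPKM at 6 days and 44.9 and 70.2 RPKM at 15 months (log2 fold change 1.67, SE 0.35, adjusted p = 0.01), and the call was lost without replicate 1 of the 6-day libraries. Kit measured 3.36 and 3.37 RPKM at 6 days and 9.66 and 7.88 RPKM at 15 months (log2 fold change 1.16, SE 0.12, adjusted p = 6.7e-04). Both rose, and Kit mRNA in KIT- cells stayed well under the 38.3 and 35.8 RPKM at 6 days and 67.8 and 62.8 RPKM at 15 months in KIT+ cells. Defining germ cell genes were abundant at both ages. Ddx4 measured 155 and 161 RPKM at 6 days and 130 and 125 RPKM at 15 months (log2 difference -0.30, SE 0.12, adjusted p = 0.095), and Uchl1, a marker of spermatogonia, measured 170 and 216 RPKM at 6 days and 258 and 319 RPKM at 15 months (log2 difference 0.58, SE 0.17, adjusted p = 0.037), neither being called.

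Of 18 genes of differentiating spermatogonia, 6 were higher and 2 were lower, with a median log2 difference of 0.02, beside 15.1% and 6.79% of all genes. Without replicate 2 of the 6-day libraries these counts were 3 and 3, and without replicate 1 of the 15-month libraries 5 and 4. Stra8, induced by retinoic acid, measured 11.4 and 10.3 RPKM at 6 days and 29.0 and 41.3 RPKM at 15 months (log2 fold change 1.59, SE 0.22, adjusted p = 0.0023). Rarg, the retinoic acid receptor of spermatogonia, measured 2.75 and 3.07 RPKM at 6 days and 9.78 and 11.9 RPKM at 15 months (log2 fold change 1.60, SE 0.16, adjusted p = 6.3e-04). Dnmt3b had a log2 fold change of 1.12, Sohlh1 of 1.06 and Dmrtb1 of 0.80, the last called in only part of the alternative settings and Sohlh1 not without replicate 2 of the 6-day libraries. Ccnd2, a cyclin induced at the step to differentiation, measured 52.0 and 43.9 RPKM at 6 days and 6.56 and 9.89 RPKM at 15 months (log2 fold change -2.43, SE 0.19, adjusted p = 2.2e-04), and Sohlh2 fell with a log2 fold change of -0.86. Levels of Stra8 in the older KIT- libraries were below the 123 and 80.2 RPKM of the 6-day KIT+ libraries.

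The 4 largest rises of the whole comparison were in spermatid genes (Prm2, Tnp1, Tnp2 and Crisp2). Of 55 tested members, 39 were higher, 0 were lower and the median log2 difference was 2.19, beside 15.1% higher and a median of 0.10 over all genes. Prm2 (chromosome 16, 10791476 to 10792198, minus strand), a protamine that packs sperm DNA, measured 0.339 and 0.503 RPKM at 6 days and 187 and 80.0 RPKM at 15 months (log2 fold change 6.44, SE 0.44, adjusted p = 1.4e-04). Tnp1 (chromosome 1, 73061657 to 73062473, minus strand), a transition protein that precedes protamines, measured 0.334 and 0.279 RPKM at 6 days and 155 and 58.0 RPKM at 15 months (log2 fold change 6.20, SE 0.44, adjusted p = 1.6e-04). Tnp2 measured 0.191 and 0.142 RPKM at 6 days and 64.2 and 54.7 RPKM at 15 months (log2 fold change 5.69, SE 0.22, adjusted p = 6.5e-05). All 3 were near the limit of detection at 6 days and among abundant transcripts at 15 months. Prm1 was at 0 in both 6-day libraries and at 8.10 and 12.5 RPKM at 15 months. Genes of the sperm tail and head rose as well, with log2 fold changes of 5.40 for Odf1, an outer dense fiber protein, 5.47 for Crisp2, 5.20 for Gsg1, 5.29 for Oaz3 and 5.03 for Akap4, the main protein of the fibrous sheath. The testis forms of glycolytic enzymes followed, Ldhc from 3.58 and 1.77 to 193 and 67.8 RPKM and Pgk2 from 0.0438 and 0.464 to 45.0 and 19.9 RPKM.

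The spermatid signal was not equal between the older libraries. Summed over the 55 genes it was 66.6 and 64.5 RPKM at 6 days and 1349 and 727 RPKM at 15 months, and 47 of the 55 genes were higher in replicate 1 than in replicate 2 of the 15-month libraries. Leaving out replicate 1 kept 36 genes higher with a median log2 difference of 1.73, and leaving out replicate 2 gave 44 with 2.49. The same sum was 354 and 238 RPKM in the 8-month KIT- libraries and 99.4 and 111 RPKM in the 15-month KIT+ libraries, so at 15 months it was larger in both KIT- libraries than in both KIT+ libraries. The part that other cells in the sort had in these values was not tested.

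**Figure D3:**
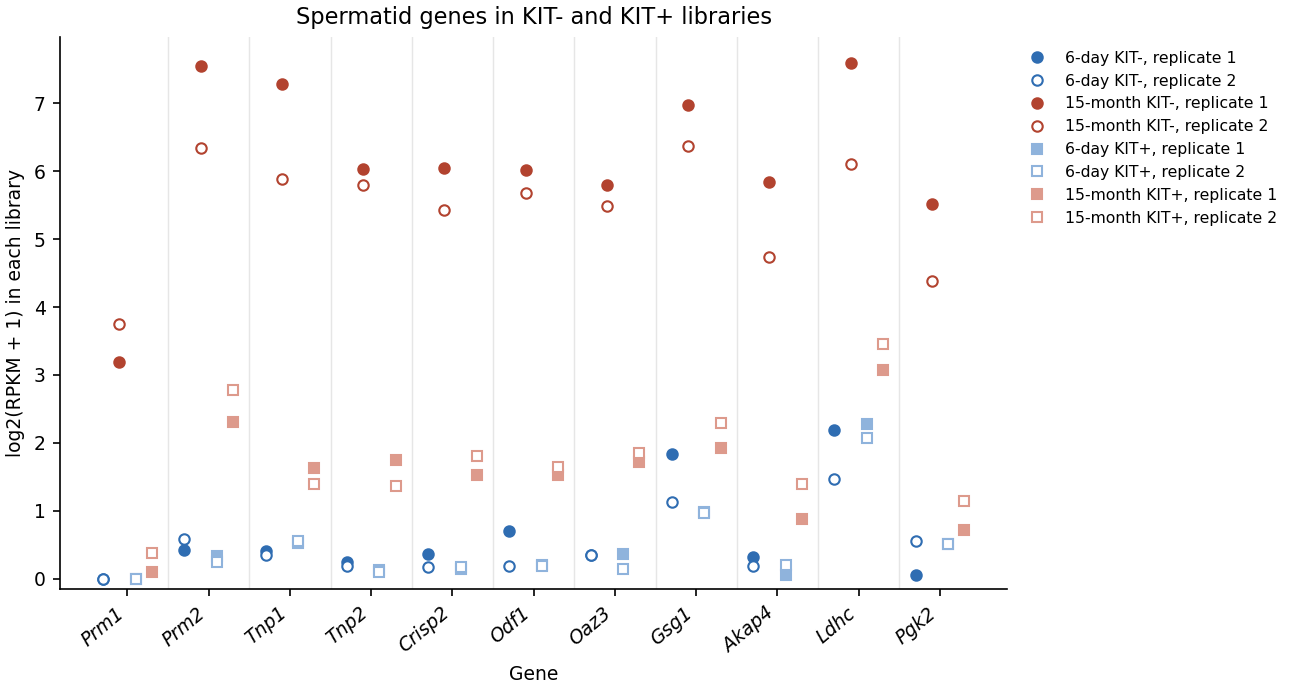
Expression of 11 spermatid genes in each library of the 4 groups, as log2(RPKM + 1) on the y axis; circles are KIT- and squares KIT+ libraries, blue is 6 days and red 15 months, filled is replicate 1 and open replicate 2. The 15-month KIT- libraries stand above all others in every gene, and the 15-month KIT+ libraries lie between them and the 6-day libraries.

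Genes of meiosis moved less. Of 41 genes of the synaptonemal complex and recombination, 14 were higher and 2 were lower (median log2 difference 0.45), beside 15.1% and 6.79% of all genes. With median-of-ratios scaling these counts were 11 and 5. Without either of the 6-day libraries 9 were higher, and without replicate 2 of the 15-month libraries 19. Sycp3, a core protein of the synaptonemal complex, measured 29.4 and 27.1 RPKM at 6 days and 65.1 and 37.9 RPKM at 15 months (log2 fold change 0.79, SE 0.24, adjusted p = 0.041), with the older replicates far apart. Hspa2, a chaperone of spermatocytes, measured 2.56 and 2.33 RPKM at 6 days and 25.6 and 5.59 RPKM at 15 months (log2 fold change 1.94, SE 0.53, adjusted p = 0.029). Syce3, Hfm1 and Ccna1 rose with log2 fold changes of 1.60, 1.16 and 1.12. Cohesin genes of meiosis that spermatogonia already transcribed at 6 days fell, with Stag3 from 94.9 and 89.1 to 47.9 and 44.6 RPKM (log2 fold change -0.98, SE 0.11, adjusted p = 7.7e-04) and Smc1b from 184 and 202 to 142 and 82.4 RPKM (log2 fold change -0.82, SE 0.23, adjusted p = 0.03). Leaving out either 6-day library ended the calls of Sycp3, Hspa2 and Smc1b, and leaving out replicate 1 or 2 of them ended those of Syce3 and Ccna1, respectively. Sycp3 also lost its call with median-of-ratios or upper-quartile scaling, with no filter, with no 8-month libraries and without 15-month replicate 1.

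The piRNA pathway, which silences transposons in germ cells through PIWI proteins and tudor domain proteins, was higher in 13 and lower in 0 of its 21 genes (median log2 difference 0.61), beside 15.1% and 6.79% of all genes. With median-of-ratios scaling 8 of its genes were higher. Tdrd9, a helicase of this pathway, measured 32.2 and 29.4 RPKM at 6 days and 93.6 and 91.1 RPKM at 15 months (log2 fold change 1.55, SE 0.09, adjusted p = 1.2e-04). Tdrd1 measured 37.6 and 34.8 RPKM at 6 days and 65.2 and 74.1 RPKM at 15 months (log2 fold change 0.92, SE 0.10, adjusted p = 7.4e-04). Tdrd7 and Tdrd6 had log2 fold changes of 1.01 and 1.47, and Piwil1, of the meiosis list, measured 2.41 and 2.01 RPKM at 6 days and 10.8 and 7.17 RPKM at 15 months (log2 fold change 1.61, SE 0.22, adjusted p = 0.0019). Without replicate 1 of the 6-day libraries 7 genes of the pathway were called.

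Many genes of DNA replication and mitosis fell. Of 47 tested genes, 19 were lower and 1, Cks1b (0.59), was higher, beside 6.79% and 15.1% of all genes, with a median log2 difference of -0.44. For 35 of the 47 both older libraries lay below both younger ones, beside 22.2% of all genes. Pcna (chromosome 2, 132074898 to 132079050, minus strand), the sliding clamp of the replication fork, measured 131 and 116 RPKM at 6 days and 45.3 and 52.7 RPKM at 15 months (log2 fold change -1.32, SE 0.12, adjusted p = 4.1e-04). Prim1, the primase subunit, measured 21.0 and 21.9 RPKM at 6 days and 7.64 and 7.59 RPKM at 15 months (log2 fold change -1.38, SE 0.10, adjusted p = 1.4e-04). Rrm2, of the ribonucleotide reductase, measured 19.3 and 17.8 RPKM at 6 days and 8.14 and 6.31 RPKM at 15 months (log2 fold change -1.26, SE 0.18, adjusted p = 0.0025). Mki67, the gene of the proliferation antigen Ki-67, measured 38.9 and 41.5 RPKM at 6 days and 18.1 and 15.5 RPKM at 15 months (log2 fold change -1.21, SE 0.14, adjusted p = 8.8e-04). In all 4 genes the 6-day values were about 2-fold or more above the 15-month values, and replicates of an age differed little. The helicase genes Mcm5, Mcm6 and Mcm7 had log2 fold changes of -1.01, -0.97 and -0.70. Summed over the list, RPKM was 2063 and 1984 at 6 days and 1378 and 1357 at 15 months, against 2576 and 2456 in the 15-month KIT+ libraries. The count of lower genes lay between 15 and 22 when a compared library was left out or another scaling was used, and the call of Cks1b was lost under each of these settings.

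Promoters of these genes are shown because members of the list fell together. E2F factors switch on replication genes at the start of S phase, and TTTCCCGC or TTTGGCGC, 2 forms of the E2F motif, were searched on both strands of windows from 250 bases before to 50 bases after each RefSeq start (GRCm38.p6). Either form was present for 8 of 38 list genes with a window (21.1%), which include 3 of 16 called genes, against 1.80% of 27025 genes. The windows of the 3 called genes are given below in the direction of transcription with the E2F letters in capitals, at chr8:75109259-75109558 (plus strand) for Mcm5, chr1:128359656-128359955 (minus strand) for Mcm6 and chr5:138171834-138172133 (minus strand) for Mcm7, and antisense matches read as the reverse complement.
Mcm5: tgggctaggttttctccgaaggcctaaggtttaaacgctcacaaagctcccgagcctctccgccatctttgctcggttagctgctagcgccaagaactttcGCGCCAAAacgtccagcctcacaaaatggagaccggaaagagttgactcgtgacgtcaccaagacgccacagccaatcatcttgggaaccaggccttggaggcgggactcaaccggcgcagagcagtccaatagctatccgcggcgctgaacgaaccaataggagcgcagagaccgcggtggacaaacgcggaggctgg
Mcm6: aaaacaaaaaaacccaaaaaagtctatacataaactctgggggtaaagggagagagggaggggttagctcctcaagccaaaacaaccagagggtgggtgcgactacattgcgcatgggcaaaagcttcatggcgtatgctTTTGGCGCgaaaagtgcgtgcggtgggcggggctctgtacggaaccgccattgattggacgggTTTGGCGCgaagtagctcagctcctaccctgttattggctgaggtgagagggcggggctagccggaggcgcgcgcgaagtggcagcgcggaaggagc
Mcm7: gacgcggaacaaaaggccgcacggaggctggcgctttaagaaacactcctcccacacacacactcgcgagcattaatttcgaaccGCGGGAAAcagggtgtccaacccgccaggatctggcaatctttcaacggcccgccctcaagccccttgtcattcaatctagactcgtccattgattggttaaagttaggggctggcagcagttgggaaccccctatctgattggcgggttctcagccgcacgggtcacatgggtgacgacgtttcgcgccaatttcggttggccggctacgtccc

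The window of Mcm6 held 2 matches and those of Mcm5 and Mcm7 held 1 each. TTTGAA, the core of the cell cycle genes homology region (CHR) of genes that act in G2 and M phase, was in the windows of 18 of 38 list genes (47.4%), against 20.2% of all genes, and these 18 include Mki67, Plk1, Top2a and Ube2c. The motif of the cyclic AMP response element, TGACGTCA, was in 1 of 47 spermatid genes with a window (Izumo1), against 2.03% of all genes, and the E2F forms were in 0 of 47. The other 12 motifs searched were a shifted E2F form (TTCCCGCC), a variant of the cyclic AMP response element (TGACGTGG), MYB forms (AACTGTCA, AACCGTTA and CCGTTA), a longer CHR form (TTTGAAAC), the E-box (CACGTG), an ETS motif (CCGGAAGT), a ZNF143 motif and RFX motifs, of which the shorter was GTTGCCATG, together with TTTGAA. They were present for 0.0222% to 20.2% of all genes and 0% to 47.4% of the list, and TTTGAAAC contains TTTGAA, AACCGTTA contains CCGTTA and TTCCCGCC overlaps TTTCCCGC. A match describes the letters of a window and not a bound site.

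Of 26 cell cycle inhibitors and senescence genes, 5 were higher and 0 lower (median log2 difference 0.29), a share of higher genes near the 15.1% of all genes, and only 1 was higher without replicate 1 of the 6-day libraries. Cdkn1b (p27), an inhibitor of cyclin-dependent kinases, measured 5.76 and 5.59 RPKM at 6 days and 18.96 and 21.6 RPKM at 15 months (log2 fold change 1.67, SE 0.15, adjusted p = 4.0e-04). Cdkn1c (p57) measured 10.2 and 13.4 RPKM at 6 days and 25.2 and 19.5 RPKM at 15 months (log2 fold change 0.87, SE 0.17, adjusted p = 0.0081). The older libraries exceeded the younger ones in both genes, and for Cdkn1b by about 3-fold. Gadd45b (1.49) and Btg2 (0.71) rose as well, and Cdkn1c, Gadd45b and Btg2 lost their calls without replicate 1 of the 6-day libraries. Btg2 also lost its call with median-of-ratios or upper-quartile scaling and without 15-month replicate 2, and Gadd45b without 15-month replicate 1. Cdkn2a, a common marker of senescent cells, measured 6.80 and 8.14 RPKM at 6 days and 10.9 and 14.2 RPKM at 15 months and did not pass (log2 difference 0.67, SE 0.22, adjusted p = 0.056).

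Replication-dependent histone genes, which share near-identical sequences and are therefore uncertain one by one, were higher in 11 and lower in 8 of 61 genes (median log2 difference -0.03), with 4 and 5 lower without replicates 1 and 2 of the 6-day libraries. Their shares of 18.0% higher and 13.1% lower stood beside 15.1% and 6.79% of all genes. Hist1h3h (chromosome 13, 21809497 to 21809984, plus strand) measured 168 and 246 RPKM at 6 days and 5.30 and 13.5 RPKM at 15 months (log2 fold change -4.42, SE 0.36, adjusted p = 2.8e-04), which made it the most strongly lowered of the histone genes. Testis histone variants rose, with Hist1h2ba from 33.7 and 20.1 to 252 and 125 RPKM (log2 fold change 2.72, SE 0.33, adjusted p = 0.0013) and the linker histone Hist1h1t with a log2 fold change of 1.47. Hist3h2ba rose as well (1.91). The call of Hist1h1t was lost without either of the 6-day libraries or without replicate 1 of the 15-month libraries.

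Genes of DNA methylation were lower in 4 and higher in 2 of 15 (median log2 difference -0.10), beside 6.79% and 15.1% of all genes. Uhrf1, which brings DNMT1 to hemimethylated DNA after replication, measured 56.3 and 61.3 RPKM at 6 days and 21.0 and 21.5 RPKM at 15 months (log2 fold change -1.42, SE 0.08, adjusted p = 1.2e-04). Dnmt1 itself measured 189 and 184 RPKM at 6 days and 118 and 108 RPKM at 15 months (log2 fold change -0.72, SE 0.11, adjusted p = 0.0032). The maintenance pair thus fell in both older libraries, together with Uhrf2 (-1.34) and Tdg (-1.11), a glycosylase of active demethylation. The dioxygenase gene Tet3 measured 7.02 and 6.91 RPKM at 6 days and 12.7 and 16.3 RPKM at 15 months (log2 fold change 0.95, SE 0.14, adjusted p = 0.0023) and, with Dnmt3b above, was the risen part of the list. Dnmt3l, the cofactor of de novo methylation in prospermatogonia, measured 1.04 and 0.859 RPKM at 6 days and 1.19 and 1.52 RPKM at 15 months and did not pass (log2 difference 0.27, SE 0.16, adjusted p = 0.26).

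Polycomb and histone deacetylase genes were higher in 9 and lower in 5 of 48 (median log2 difference 0.17). Phf1, an accessory factor of Polycomb repressive complex 2, measured 4.38 and 5.59 RPKM at 6 days and 16.2 and 15.9 RPKM at 15 months (log2 fold change 1.52, SE 0.13, adjusted p = 3.5e-04). Hdac6 measured 20.9 and 18.7 RPKM at 6 days and 43.1 and 48.0 RPKM at 15 months (log2 fold change 1.16, SE 0.12, adjusted p = 6.6e-04). The demethylase gene Kdm6a fell from 4.67 and 6.27 to 2.32 and 1.72 RPKM (log2 fold change -1.09, SE 0.19, adjusted p = 0.0051) and Hdac3 from 77.6 and 76.4 to 46.8 and 40.4 RPKM (log2 fold change -0.81, SE 0.14, adjusted p = 0.0051). These shares were close to those of all genes, and median-of-ratios scaling turned the counts into 6 higher and 8 lower.

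Imprinted genes, transcribed from 1 parental allele in somatic tissue, were lower in 7 and higher in 3 of 34 (median log2 difference -0.08), beside 6.79% and 15.1% of all genes. The count of lower genes was 4 without replicate 1 of the 6-day or replicate 2 of the 15-month libraries and 10 without replicate 1 of the 15-month libraries. Mest measured 18.1 and 14.9 RPKM at 6 days and 2.17 and 2.44 RPKM at 15 months (log2 fold change -2.40, SE 0.16, adjusted p = 1.3e-04). Snrpn measured 11.5 and 12.1 RPKM at 6 days and 2.32 and 3.69 RPKM at 15 months (log2 fold change -1.70, SE 0.21, adjusted p = 0.0013). The other lower genes were Impact, Peg10, Nespas, Usp29 and Mcts2, and all 7 are known as paternally expressed genes. Grb10, an adaptor that restrains growth factor receptors, measured 2.17 and 2.07 RPKM at 6 days and 14.6 and 22.2 RPKM at 15 months (log2 fold change 2.61, SE 0.18, adjusted p = 1.3e-04) and, with Cdkn1c and Phlda2, belongs to the genes known as maternally expressed in most tissues. Other paternally expressed members such as Peg3, Dlk1, Igf2 and Ndn were not called. H19 measured 20.1 and 20.02 RPKM at 6 days and 21.4 and 25.8 RPKM at 15 months and did not pass (log2 difference 0.22, SE 0.22, adjusted p = 0.51).

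Of 43 genes of BMP, TGF-beta, activin and Nodal signaling, 6 were higher and 5 were lower (median log2 difference 0.05), beside 15.1% and 6.79% of all genes. Without either of the 6-day libraries 3 were higher, and with median-of-ratios scaling 6 were higher and 8 lower. The receptor gene Bmpr1a measured 62.7 and 62.3 RPKM at 6 days and 20.7 and 23.1 RPKM at 15 months (log2 fold change -1.47, SE 0.09, adjusted p = 1.2e-04). Fst, whose product follistatin binds activin, measured 57.1 and 57.3 RPKM at 6 days and 17.4 and 21.0 RPKM at 15 months (log2 fold change -1.53, SE 0.17, adjusted p = 7.9e-04). The inhibitor Smad7 fell from 11.7 and 10.3 to 2.68 and 3.50 RPKM (log2 fold change -1.55, SE 0.17, adjusted p = 7.7e-04), so that a receptor and 2 antagonists of the family were lower in both older libraries. The signal transducer Smad3 rose from 4.44 and 4.98 to 9.84 and 14.7 RPKM (log2 fold change 1.19, SE 0.20, adjusted p = 0.0044), and the decoy receptor gene Bambi had a log2 fold change of 1.48.

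Wnt signaling genes were lower in 6 and higher in 3 of 42 (median log2 difference -0.03), beside 6.79% and 15.1% of all genes. Sfrp2, a secreted Wnt antagonist, measured 52.2 and 36.8 RPKM at 6 days and 3.84 and 2.02 RPKM at 15 months (log2 fold change -3.55, SE 0.24, adjusted p = 1.3e-04). The receptor gene Fzd7 measured 5.60 and 4.63 RPKM at 6 days and 1.499 and 1.05 RPKM at 15 months (log2 fold change -1.43, SE 0.22, adjusted p = 0.0034). Both were lower in each older library than in either younger one, as was every gene called lower. Dkkl1, a Dickkopf-like gene that is also expressed in spermatocytes and spermatids, measured 0 and 0.689 RPKM at 6 days and 13.2 and 6.79 RPKM at 15 months (log2 fold change 3.02, SE 0.38, adjusted p = 0.0014).

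Adhesion genes were lower in 15 and higher in 3 of 61 (median log2 difference -0.02), beside 6.79% and 15.1% of all genes. Itgb1, the beta-1 integrin through which spermatogonia hold to laminin, measured 106 and 117 RPKM at 6 days and 49.8 and 42.7 RPKM at 15 months (log2 fold change -1.25, SE 0.11, adjusted p = 3.6e-04). Itgb5 measured 31.1 and 28.1 RPKM at 6 days and 11.6 and 12.4 RPKM at 15 months (log2 fold change -1.24, SE 0.10, adjusted p = 2.6e-04). Other lowered members included the integrins Itga6 and Itgav, the cadherins Cdh2, Cdh3 and Cdh4 and the junction proteins Tjp1 and Ocln. Cldn5, a claudin of endothelium that is also on the endothelial list, was among the 3 higher genes and measured 0.469 and 0.165 RPKM at 6 days and 5.68 and 3.54 RPKM at 15 months (log2 fold change 2.07, SE 0.24, adjusted p = 9.4e-04).

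Of 76 cytoplasmic ribosomal protein genes, 38 were higher and 1 was lower (median log2 difference 0.73), with 28 and 2 after median-of-ratios scaling and 18 and 0 without replicate 1 of the 6-day libraries. Shares over all tested genes were 15.1% higher and 6.79% lower. Rps14 measured 78.1 and 94.0 RPKM at 6 days and 239 and 292 RPKM at 15 months (log2 fold change 1.62, SE 0.18, adjusted p = 8.2e-04). Rpl34 measured 23.6 and 23.5 RPKM at 6 days and 107 and 93.7 RPKM at 15 months (log2 fold change 2.04, SE 0.18, adjusted p = 3.6e-04), and Rpl39 was the lowered gene (-1.60), although its call was lost without replicate 1 of the 6-day libraries. Reads of ribosomal protein genes can be divided with their many pseudogenes, so these values are uncertain one by one.

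Nuclear genes of oxidative phosphorylation were higher in 26 and lower in 4 of 76 (median log2 difference 0.54), and in 15 and 2 without replicate 1 of the 6-day libraries. All tested genes had shares of 15.1% higher and 6.79% lower. Cox7a2, a subunit of cytochrome c oxidase, measured 8.00 and 11.8 RPKM at 6 days and 28.4 and 34.2 RPKM at 15 months (log2 fold change 1.58, SE 0.23, adjusted p = 0.0026). Ndufa6, of complex I, had a log2 fold change of 1.74 and Atp5f1, of the ATP synthase, of -1.18. Of 12 messenger RNAs encoded by the mitochondrial genome, 4 were lower and 0 higher (median log2 difference -0.58, which became -0.04 without replicate 1 of the 15-month libraries), with 2 lower without replicate 1 of either age and 1 without replicate 2 of the 6-day libraries. Their summed RPKM was 20799 and 20715 at 6 days and 16447 and 28309 at 15 months, so the ages overlapped. Of these, mt-Nd4l measured 17.1 and 5.37 RPKM at 6 days and 0.341 and 0.501 RPKM at 15 months (log2 fold change -2.92, SE 0.52, adjusted p = 0.0057).

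Glycolysis genes were higher in 4 (17.4%) and lower in 5 (21.7%) of 23 (median log2 difference 0.00), beside 15.1% and 6.79% of all genes. Gapdh, often used as a reference gene, measured 222 and 257 RPKM at 6 days and 97.8 and 113 RPKM at 15 months (log2 fold change -1.17, SE 0.12, adjusted p = 6.0e-04) and remained lower under every scaling. Pdk1, which keeps pyruvate out of mitochondria, measured 38.8 and 41.7 RPKM at 6 days and 12.8 and 15.1 RPKM at 15 months (log2 fold change -1.47, SE 0.12, adjusted p = 2.6e-04). Ldha rose from 6.69 and 5.28 to 13.1 and 12.8 RPKM (log2 fold change 1.01, SE 0.15, adjusted p = 0.003) and the glucose transporter gene Slc2a3 from 13.2 and 13.0 to 31.3 and 22.4 RPKM (log2 fold change 0.96, SE 0.15, adjusted p = 0.0036). The list thus held clear changes in both directions.

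DNA repair genes were higher in 5 and lower in 8 of 44 (median log2 difference 0.01), beside 15.1% and 6.79% of all genes. Chek1 measured 22.9 and 23.6 RPKM at 6 days and 12.6 and 13.4 RPKM at 15 months (log2 fold change -0.79, SE 0.10, adjusted p = 0.0012) and Brca1 had a log2 fold change of -0.75. Both act at replication forks and were lower in both older libraries, whereas Ercc2, a helicase of nucleotide excision repair, rose (1.10). Splicing regulators were higher in 3 and lower in 4 of 46 (median log2 difference 0.00), shares that lie under or near those of all genes, or 1 and 8 with median-of-ratios scaling. Esrp1, an epithelial splicing regulator, measured 34.3 and 28.3 RPKM at 6 days and 14.4 and 12.2 RPKM at 15 months (log2 fold change -1.18, SE 0.12, adjusted p = 7.3e-04). Mbnl2, a muscleblind protein, measured 5.19 and 5.71 RPKM at 6 days and 14.2 and 15.3 RPKM at 15 months (log2 fold change 1.29, SE 0.18, adjusted p = 0.002).

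Immediate early and heat shock genes, which respond quickly to handling of cells as well as to signals, were higher in 10 and lower in 3 of 26 (median log2 difference 0.42), beside 15.1% and 6.79% of all genes. With median-of-ratios scaling 8 were higher and 5 lower. Fos measured 6.19 and 7.24 RPKM at 6 days and 23.1 and 38.8 RPKM at 15 months (log2 fold change 2.01, SE 0.22, adjusted p = 8.2e-04). Hspa1a measured 2.22 and 2.07 RPKM at 6 days and 9.02 and 14.7 RPKM at 15 months (log2 fold change 2.00, SE 0.29, adjusted p = 0.0023), and Dusp1 had a log2 fold change of 1.69. These rose in both older libraries, but Egr1 (-1.04) and Egr2 (-1.43), from the same class of early genes, fell. The call of Egr1 was lost without either of the 6-day libraries.

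**Figure D4:**
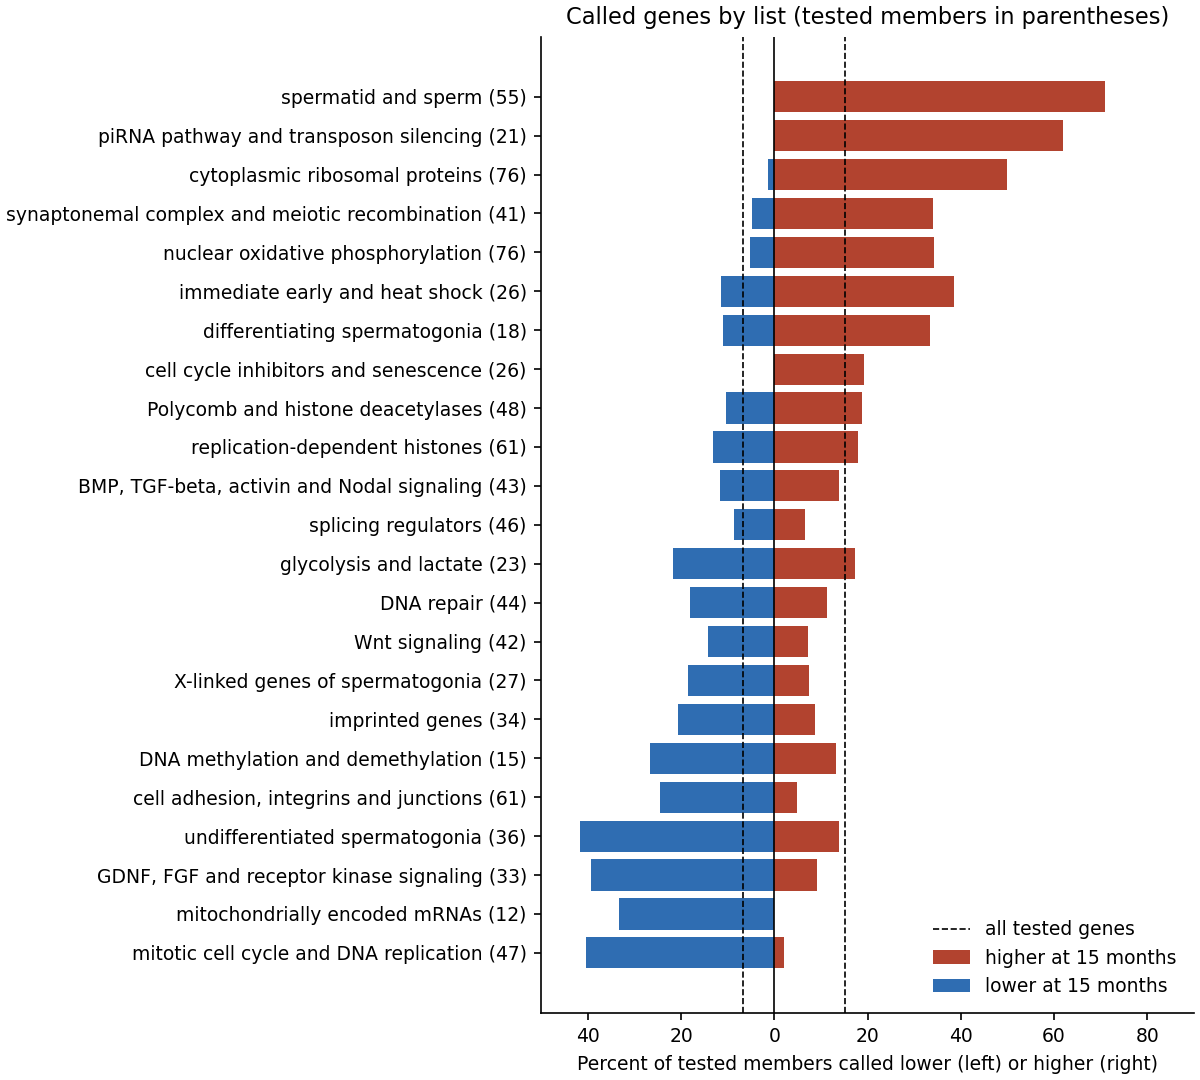
Percent of the tested members of each list of a process or gene class (lists of cell markers and lists added later are not drawn) called lower (blue, to the left) or higher (red, to the right) at 15 months, with the number of tested members in parentheses. Dashed lines mark the shares of all tested genes, 6.79% lower and 15.1% higher. Among the lists drawn, spermatid, piRNA and ribosomal protein genes extend furthest to the right. Undifferentiated spermatogonia, replication, and GDNF, FGF and receptor kinase genes extend furthest to the left.

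Markers of other testis cells were low. Their counts below stand beside 15.1% higher and 6.79% lower among all genes, and in such short lists 1 or 2 calls move a share. The 14 Sertoli cell markers, led by Dmrt1, which spermatogonia also express, summed to 65.1 to 72.4 RPKM at 6 days and 63.3 to 65.7 RPKM at 15 months. Of these markers 2 (14.3%) were higher and 2 (14.3%) were lower, with a median log2 difference of 0.11. The 2 higher ones are not named here. The 2 lower ones were Amh and Inha. Amh, made by immature Sertoli cells, fell from 2.95 and 4.27 to 0.167 and 0.0358 RPKM (log2 fold change -2.05, SE 0.25, adjusted p = 0.0013). Inha fell with a log2 fold change of -1.15, and Fshr was at 0 in both 15-month libraries. The call of Inha was lost without replicate 1 at either age. The 8 Leydig cell markers summed to 3.40 to 6.04 RPKM at 6 days and to 20.3 and 2.22 RPKM in replicates 1 and 2 at 15 months, with none called. Myoid cell markers were higher in 3 of 7 and summed to 3.39 to 5.06 against 14.2 to 28.0 RPKM, led by Acta2, which went from 0.313 and 1.51 to 8.91 and 4.96 RPKM (log2 fold change 2.08, SE 0.40, adjusted p = 0.0077), Tagln (2.46) and Myh11 (1.35). The call of Myh11 was lost without either of the 6-day libraries. Endothelial markers were higher in 2 of 9 (22.2%) and summed to 3.98 to 4.59 against 11.5 to 14.8 RPKM. The 14 macrophage and leukocyte markers summed to 4.82 to 6.67 against 2.56 to 6.72 RPKM with 1 lower, and Tyrobp was at 0 in all 4 libraries. Of 12 oocyte markers 1 was higher and of 3 erythroid markers 1 was higher. Myoid, Leydig and spermatid sums were all larger in replicate 1 than in replicate 2 of the 15-month libraries, and the part of these cells in the results above was not tested.

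By position, 71 of 778 X-linked genes (9.13%) were higher and 80 (10.3%) lower, beside 15.4% and 6.61% of autosomal genes. Among 27 X-linked genes of spermatogonia, 2 were higher and 5 lower (median log2 difference -0.24), or 1 and 8 with median-of-ratios scaling and 1 and 3 without replicate 1 of the 6-day libraries. Usp26, a deubiquitinase of the testis, measured 184 and 176 RPKM at 6 days and 53.0 and 58.3 RPKM at 15 months (log2 fold change -1.68, SE 0.10, adjusted p = 1.2e-04). Tex13 measured 121 and 131 RPKM at 6 days and 56.8 and 51.1 RPKM at 15 months (log2 fold change -1.21, SE 0.12, adjusted p = 5.8e-04). Both were well expressed at 6 days and fell in both older libraries. Among 168 miRNA genes 26 were lower and 9 higher, but 15 of the 26 had 0 reads in both 15-month libraries and these short genes rest on few reads, with a median of 24.5 reads in a 6-day library.

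The age difference was set against that of KIT+ cells sorted from mice of the same ages. In KIT+ cells 9.08% of genes were higher and 5.95% lower at 15 months. The difference between the 2 age changes, tested as an interaction in limma, passed an adjusted p of at most 0.05 for 722 genes (3.92%), 548 positive (2.98%), meaning a larger rise or a smaller fall in KIT- cells, and 174 negative (0.945%). The interaction contains the KIT- age difference itself, so a shared sign is partly built in. Of the genes called higher in KIT- cells 432 had a positive and 3 a negative interaction. Of those called lower 91 had a negative and 13 a positive one. These counts moved strongly with the libraries used, from 147 without replicate 1 of the 6-day KIT+ libraries to 1852 without replicate 1 of the 15-month KIT- libraries.

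Spermatid genes carried 24 positive and 0 negative interactions among 55 genes. For Tnp1 the interaction was 5.23 (adjusted p = 0.0071 in limma), with 2.10 and 1.62 RPKM in the 15-month KIT+ libraries. For Prm2 it was 4.19, with 3.94 and 5.86 RPKM. Replication genes carried 19 negative and 0 positive interactions among 47 genes, and in KIT+ cells 8 of them were higher and 1 lower at 15 months. The interactions of single lists and genes, here and below, were not tested again with libraries left out. Pcna stood at 135 and 152 RPKM in KIT+ cells at 6 days and 122 and 115 RPKM at 15 months, so its interaction was -1.05 (adjusted p = 0.019 in limma). For Mki67 it was -0.91, for Uhrf1 -0.96 and for Dnmt1 -0.79. Cdkn1b went the opposite way in KIT+ cells, from 2.76 and 2.65 to 1.03 and 1.38 RPKM, with an interaction of 2.42 (adjusted p = 0.0039 in limma).

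Of the 33 genes of GDNF, FGF and receptor kinase signaling, 13 were lower and 3 higher in KIT- cells and 11 were lower and 2 higher in KIT+ cells. A positive interaction, that is, a smaller fall or a larger rise in KIT- cells, was found for 4. Ret fell in KIT+ cells from 30.4 and 25.8 to 2.37 and 1.86 RPKM, with an interaction of 1.94 (adjusted p = 0.0043 in limma). For Gfra1, which ended at 2.15 and 1.41 RPKM in KIT+ cells, the interaction was 1.69, and for Etv5 it was 1.36. Other genes of undifferentiated cells differed likewise, with 10 positive interactions and 1 negative among 36. Pou5f1 stood at 9.05 and 3.88 RPKM in 15-month KIT+ cells and had an interaction of 2.40 (adjusted p = 0.04 in limma). For Nanos3 it was 1.99, for Lin28a 1.37 and for Zbtb16 1.19. Epcam was the negative one (-1.35), since it rose in KIT+ cells to 123 and 122 RPKM.

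**Figure D5:**
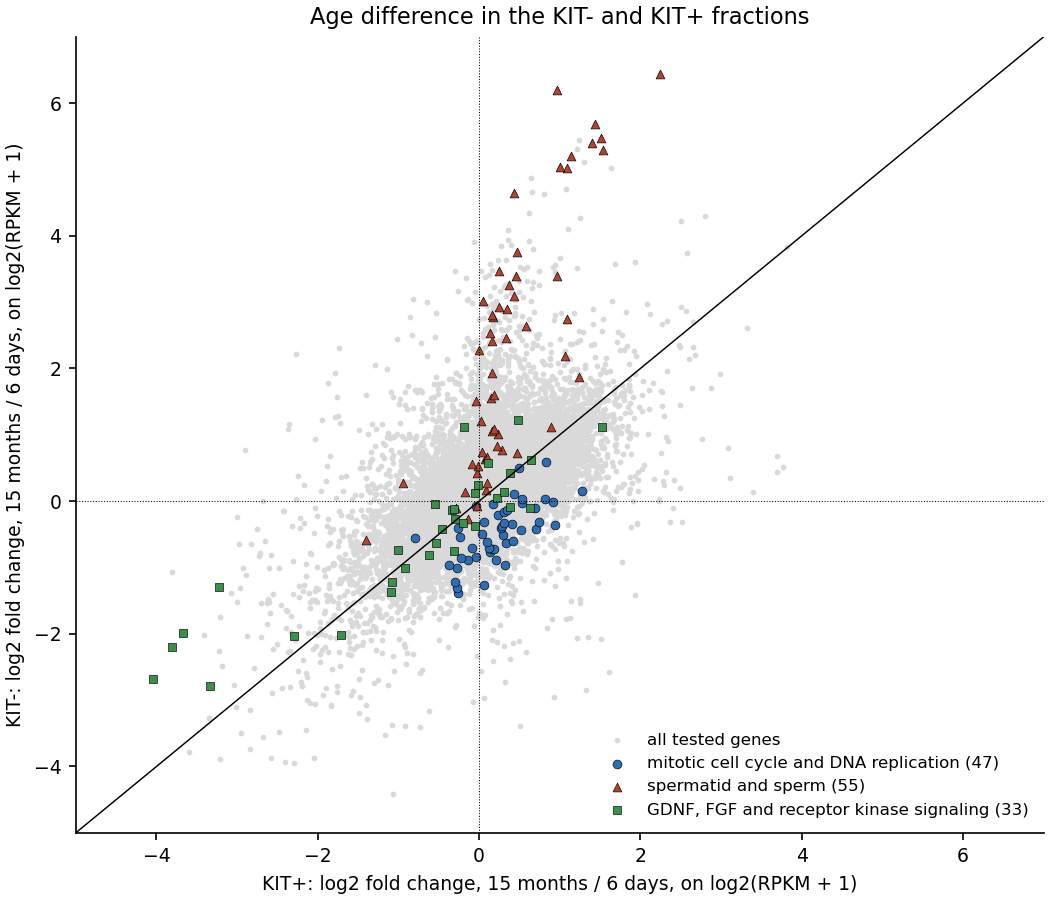
Log2 fold change of 15 months over 6 days in KIT+ cells (x axis) and KIT- cells (y axis), on log2(RPKM + 1), for all tested genes in grey and 3 gene lists in color; the solid line marks equal changes. Spermatid genes lie far above the line and replication genes below it. The strongly lowered genes of GDNF, FGF and receptor kinase signaling lie in the lower left, most of them above the line.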

How the data were processed

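Total RNA of FACS-sorted Oct4-GFP+ cells was depleted of rRNA (Ribo-Zero Gold) and sequenced as paired-end reads on an Illumina HiSeq instrument. The paper names Trimmomatic and featureCounts on Ensembl genes, whereas the submitters' processing notes name Trim Galore and RSEM, both with mm9; which made these tables, the tool that scaled them and the use of strand are not given in the sources used here. The authors deposited 1 table of RPKM per library, normalised for gene length and library reads. Overlapping or antisense genes and close copies can therefore share reads. The ages in the paper and in the labels differ slightly, and the labels (6 days and 15 months) were followed.

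Each table held 37991 identifiers, of which 37205 had names and mm9 coordinates in GENCODE M1. Multiplying RPKM by exon length and library total returned whole reads, within 0.05 of a read, in 98.0% to 98.2% of values, so depth was known, and intervals or floors based on it cover counting error only. The 18412 genes with at least 10 reads in at least 2 libraries were tested with limma 3.58.1 (R 4.3.3) on log2(RPKM + 1), with 1 mean per group for all 11 libraries, a variance trend and no pairing, and adjusted by Benjamini-Hochberg over all genes. Genes were called at an adjusted p of at most 0.05 and 1.5-fold, and interactions at the adjusted p alone. The procedure was tested on simulated data. Symbols with more than 1 tested identifier (91) were represented by the most expressed one in lists.

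The libraries, the 31 gene lists and 3 added ones were chosen with earlier results of these data known. Named genes were the 6 with the lowest p per direction among non-overlapping called genes, the 8 protein-coding genes with the largest changes at a mean of at least 5 RPKM (of both, a selection), the leading called members of each list and fixed markers; predicted genes and small RNAs were left to the counts. Some items are not reported here. Genes outside these rules, such as the interferon, retinoid and mTOR genes, were chosen after their values were seen. Promoter windows came from RefSeq (GRCm38.p6).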

Additional observations from a re-analysis of the deposited data

Results flagged for a closer look

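The results below differed between the KIT- and KIT+ fractions in the test of the difference itself, limma's interaction at an adjusted p of at most 0.05. Positive values mean a larger rise or a smaller fall from 6 days to 15 months in KIT- cells. There were 548 positive and 174 negative genes, or 317 and 57 without the 8-month libraries. Single genes were not tested again with libraries left out, so the values below lack that check.

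Among the genes named here, spermatid genes had the highest values, with 5.23 for Tnp1, 4.25 for Tnp2, 4.22 for Pgk2, 4.19 for Prm2, 4.06 for Gsg1, 4.03 for Akap4, 4.01 for Odf1, 3.96 for Crisp2, 3.93 for Ldhc and 3.76 for Oaz3. The spermatid gene Prm1 had 3.23, below Gbp2 and Spata20. Among genes of undifferentiated cells and of GDNF, FGF and receptor kinase signaling the values were 2.40 for Pou5f1, 1.99 for Nanos3, 1.94 for Ret, 1.89 for Glis3, 1.69 for Gfra1, 1.67 for Upp1, 1.37 for Lin28a, 1.36 for Etv5, 1.30 for Mapk3, 1.19 for Zbtb16 and -1.35 for Epcam. The piRNA gene Tdrd1 had 0.68.

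Cell cycle and chromatin genes had -1.32 for Rrm2, -1.12 for Prim1, -1.05 for Pcna, -0.91 for Mki67, -0.82 for Mcm7, -0.59 for Mcm6, -0.96 for Uhrf1, -0.79 for Dnmt1, -0.90 for Chek1, -0.82 for Brca1, -3.35 for Hist1h3h and -1.07 for Hist3h2ba, against 2.42 for Cdkn1b. Signaling, adhesion and X-linked genes had 1.10 for Fst, -0.89 for Bmpr1a, -1.03 for Itgb1, -0.66 for Usp26 and -1.01 for Tex13. Metabolic and splicing genes had 2.09 for Slc2a3, 2.02 for Ldha, 1.15 for Pdk1, -0.85 for Gapdh, 1.63 for Mbnl2 and -1.04 for Esrp1. The genes first named above for small p-values had 3.33 for Spata20, 2.51 for Fgd5 and 2.30 for Sord. Interferon genes had 3.39 for Gbp2, 2.66 for Gbp3, 2.24 for Psmb10, 2.05 for Oasl2, 1.35 for Tapbp and 1.26 for Irf1.

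The 8-month KIT- libraries, which belong to neither age compared, also held spermatid transcripts above the 6-day level, with sums over the 55 genes of 354 and 238 RPKM in replicates 1 and 2 against 66.6 and 64.5 RPKM at 6 days. In groups of 2 libraries no test for an outlying library was made.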

How the results depend on the processing

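The count of called genes was 4039 and stayed within 1.5 times of it under a pseudocount of 0.1 (4478), a filter at a mean of 1 RPKM (3412), no filter (3381), median-of-ratios (3979) or upper-quartile scaling (3948), voom weights on recovered reads (4096), no 8-month libraries (3535) and the adjusted p alone (5128). A fit on the 4 compared libraries alone called 0 genes in either direction and 0 list members, since 2 residual degrees of freedom remain. Leaving out each compared library in turn gave 2622 to 4876 genes, 1780 to 3243 higher and 842 to 1633 lower, with the lowest counts without 6-day replicate 1 and the highest without 15-month replicate 1; a lone library is then assumed to vary like the other groups. The interaction with KIT gave 147 to 1852 genes, 131 to 1285 positive and 13 to 567 negative, when each of 8 libraries was left out, and 374 genes, 317 and 57, without the 8-month libraries. Of 140 called genes named in the text, none changed sign under any alternative run. The number that lost the call was 22 without 6-day replicate 1, 12 without 6-day replicate 2, 6 and 5 without 15-month replicates 1 and 2, and at most 8 under the others except the fit on 4 libraries, which ended all calls. At a mean of 1 RPKM no erythroid marker was left to give a median.

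With the replicate number as a block, 3973 genes were called (2737 higher and 1236 lower) with 590 interactions, and among the named genes Dmrtb1 lost its call. The sources do not tie equal numbers to 1 experiment, and deviations of same-numbered libraries of different groups correlated at -0.06 to 0.08.

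Depth limits weakly expressed genes, where 3 reads on a 1 kb gene are worth up to 0.117 RPKM. Having 2 libraries per group limits the estimate of the spread.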

Other observations

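Genes of the interferon response and of antigen presentation were more abundant in the older KIT- cells. The list was written after values of some of its members had been seen, so its counts are a description. Of 58 tested genes 32 were higher and 3 were lower at 15 months (median log2 difference 0.66), beside 15.1% and 6.79% of all genes, and 22 were higher without replicate 1 of the 6-day libraries. Gbp2 (chromosome 3, 142283566 to 142300972, plus strand in mm9), an interferon-induced GTPase, measured 1.21 and 0.665 RPKM at 6 days and 51.6 and 72.8 RPKM at 15 months (log2 fold change 5.02, SE 0.26, adjusted p = 1.1e-04). Gbp3, from the same family, measured 0.366 and 1.61 RPKM at 6 days and 24.0 and 22.0 RPKM at 15 months (log2 fold change 3.67, SE 0.29, adjusted p = 2.4e-04). Psmb10, a subunit of the immunoproteasome, measured 4.56 and 6.43 RPKM at 6 days and 30.6 and 36.5 RPKM at 15 months (log2 fold change 2.42, SE 0.20, adjusted p = 2.8e-04). In all 3 genes both older libraries exceeded both younger ones several times over. The transcription factor Irf1 measured 10.3 and 10.7 RPKM at 6 days and 30.1 and 41.0 RPKM at 15 months (log2 fold change 1.65, SE 0.16, adjusted p = 5.7e-04). Oasl2 (2.62) and Tapbp (1.57), a chaperone that loads peptides on MHC class I, rose as well. The sum over the list was 187 and 195 RPKM at 6 days, 403 and 473 RPKM at 15 months and 234 and 217 RPKM in 15-month KIT+ cells, and macrophage and leukocyte markers summed to at most 6.72 RPKM in the 4 KIT- libraries against 22.8 and 88.1 RPKM in 15-month KIT+ cells. In the same KIT- libraries myoid markers went from 3.39 to 5.06 RPKM at 6 days to 14.2 to 28.0 RPKM at 15 months and endothelial markers from 3.98 to 4.59 to 11.5 to 14.8 RPKM. The part of leukocytes, myoid cells or endothelial cells in the interferon values was not tested.

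Lists of retinoid metabolism and of the mTOR pathway, also written after some values had been seen, moved little as groups. Retinoid genes were higher in 4 and lower in 1 of 22 (median log2 difference 0.13), shares near the 15.1% and 6.79% of all genes. Aldh1a2, which makes retinoic acid, measured 2.42 and 6.41 RPKM at 6 days and 13.3 and 22.3 RPKM at 15 months (log2 fold change 1.86, SE 0.35, adjusted p = 0.0074), and Rdh11, a retinol dehydrogenase, measured 1.02 and 2.00 RPKM at 6 days and 6.96 and 7.42 RPKM at 15 months (log2 fold change 1.73, SE 0.22, adjusted p = 0.0015). Genes of the mTOR pathway were higher in 7 and lower in 3 of 39 (median log2 difference 0.19), or 4 and 5 with median-of-ratios scaling. Their shares of 17.9% and 7.69% were near the 15.1% and 6.79% of all genes. Akt1, a kinase upstream of mTORC1, measured 9.97 and 7.53 RPKM at 6 days and 25.6 and 26.6 RPKM at 15 months (log2 fold change 1.48, SE 0.15, adjusted p = 6.0e-04), and Deptor, an inhibitor of mTOR, had a log2 fold change of -0.85, whose call was lost without replicate 1 of the 6-day libraries.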
